A study of Homo sapiens with 8 samples.

Results

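The open chromatin landscape of the EZH2 WT line was described from 2 ATAC-seq libraries of HEK293T, an established line derived from human embryonic kidney. ATAC-seq cuts accessible DNA with the Tn5 transposase, so that peaks of sequenced fragments mark open chromatin regions (OCRs). An OCR was counted when peaks of WT replicate 1 and of WT replicate 2 shared at least 1 bp, and overlapping peaks were merged. By this rule, 48592 of the 78297 regions found in either WT library were shared OCRs (62.1%). A further 16080 regions had a peak in replicate 1 alone and 13625 in replicate 2 alone, and merging the peaks of all 8 libraries of the study gave 101836 regions.

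The study made 4 stable lines carrying EZH2 as WT or as the mutants Y641F, A677G and H689A/F667I, with 2 ATAC-seq libraries of each. The WT line received wild-type EZH2 by lentivirus and was selected with blasticidin, and the host cells' own EZH2 is not mutated per the study's methods. It is therefore a cell line with added EZH2 and not an untreated parental culture, and no library of cells without the transgene was analysed here. Both libraries are described as independent biological replicates of this 1 line, so the spread between them covers the culture and the assay but not other lines.

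A DNA segment is accessible where nucleosomes are displaced by transcription factors, remodelers or the transcription machinery. Promoters of genes used in every cell are usually open in all tissues, whereas enhancers and insulators, which lie mostly in introns and between genes, open in fewer cell types. EZH2 is the catalytic subunit of Polycomb repressive complex 2 (PRC2), which methylates lysine 27 of histone H3 and keeps developmental genes compact. The following quantities, given by MACS2 for each broad peak, were used. The fold is the ratio of the fragment pileup to the local background, the −log10 p measures how unlikely the pileup is under that background, and the width is the length of the peak. In broad peaks the fold and −log10 p are averages over the whole peak, so a long peak with a sharp center has a lower fold than its center alone.

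The middle of the regions that led each ranking is shown first, as 200 bases of the hg38 reference on the plus strand taken from the part open in both libraries. The region strongest by fold, 828.8 kb from the closest coding start (KCNJ18), gave these bases at chr17:22521331-22521530.
Strongest by fold, chr17: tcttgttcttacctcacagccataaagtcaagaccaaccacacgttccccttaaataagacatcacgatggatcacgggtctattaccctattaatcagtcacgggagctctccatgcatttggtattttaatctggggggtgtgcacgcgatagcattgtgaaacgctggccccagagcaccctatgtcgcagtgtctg
The region with the highest −log10 p gave a repetitive, AT-rich stretch at chr3:93470480-93470679.
Strongest by −log10 p, chr3: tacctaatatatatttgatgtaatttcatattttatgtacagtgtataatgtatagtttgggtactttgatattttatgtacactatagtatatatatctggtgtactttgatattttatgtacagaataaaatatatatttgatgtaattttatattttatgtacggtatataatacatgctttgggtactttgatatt
The widest OCR covered the start of ZNF503, a zinc finger repressor gene, and its middle lies at chr10:75402107-75402306.
Widest, ZNF503: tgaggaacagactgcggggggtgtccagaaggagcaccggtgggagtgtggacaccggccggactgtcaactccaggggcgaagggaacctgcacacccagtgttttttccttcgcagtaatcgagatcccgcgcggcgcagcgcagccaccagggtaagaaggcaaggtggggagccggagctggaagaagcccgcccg
Among OCRs with the most coding start sites, the highest ranked whose middle lies outside annotated UTRs had the starts of NDUFA11 and VMAC inside or within 1 kb, with its middle at chr19:5904237-5904436.
Most start sites, NDUFA11 and VMAC: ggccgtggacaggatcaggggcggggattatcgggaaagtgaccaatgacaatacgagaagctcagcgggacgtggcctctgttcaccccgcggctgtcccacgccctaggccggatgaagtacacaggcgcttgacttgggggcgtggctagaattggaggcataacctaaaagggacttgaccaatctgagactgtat

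The shared OCRs were short and covered little of the genome. They added up to 42.5 Mb, or 1.46% of the 2911 Mb of sequence on chromosomes 1 to 22 and X. Their median width was 774 bp, with an interquartile range of 487 to 1149 bp and extremes of 200 and 4236 bp. Only 1559 reached 2 kb and 99 reached 3 kb. Replicate 1 had 64923 peaks over 42.5 Mb and replicate 2 had 62514 peaks over 41.3 Mb, a mean of 63718.5 ± 1703 peaks (SD, n = 2). Read depth is not given in the sources used here, so the precision of a single peak cannot be stated from counts.

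Coding promoters made up 32.0% of the shared OCRs and 45.2% of their length. These 15567 regions lay within 1 kb of the start of a protein-coding transcript and had a median width of 1183 bp. Introns held 16317 shared OCRs (33.6%) with a median width of 609 bp, intergenic sequence held 11585 (23.8%) with a median of 615 bp, and exons away from coding starts held 5123 (10.5%) with a median of 750 bp. Median −log10 p at promoters was 10.2 in replicate 1 and 9.88 in replicate 2, against 6.02 and 5.9999 in introns. The median fold differed less between these places, with 4.05 and 4.09 at promoters and 3.89 and 3.91 in introns. Promoters were thus set apart by width and −log10 p more than by fold. In the regions found in a single library, 7.94% of those of replicate 1 and 8.09% of those of replicate 2 were at a coding promoter, and their median widths were 311 and 318 bp. The share at promoters depends on how starts are counted, and was 25.1% with 1 canonical start per gene in place of all transcript starts.

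Base composition followed the same division. The median GC content was 62.3% at promoter OCRs, 53.5% in exons, 46.6% in introns and 48.8% between genes. The ratio of observed to expected CpG dinucleotides, which is near 1 where CpG sites have not been lost by methylation and decay, had a median of 0.731 at promoters and 0.219 in introns. Regions of a single library resembled the intronic OCRs, with median CpG ratios of 0.1998 in replicate 1 and 0.202 in replicate 2.

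Replicate agreement was high for the strong regions and low for the weak. Of the peaks of replicate 1, 75.2% fell in a shared OCR, and of those of replicate 2, 78.2%. When peaks were ranked by −log10 p, 24.6% of the lowest 10% of replicate 1 and 29.6% of those of replicate 2 had a partner, and 99.98% of the highest 10% did in both libraries (6492 of 6493 peaks and 6251 of 6252). Ranking by width gave 38.9% and 46.1% in the lowest 10% and 99.3% in the highest 10% of each library. Ranking by fold gave 48.2% and 54.5% in the lowest 10%, and less in the next 10% above, with 46.1% and 48.5%. The lowest fold was 1.65 in replicate 1 and 1.66 in replicate 2.

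**Figure D1:**
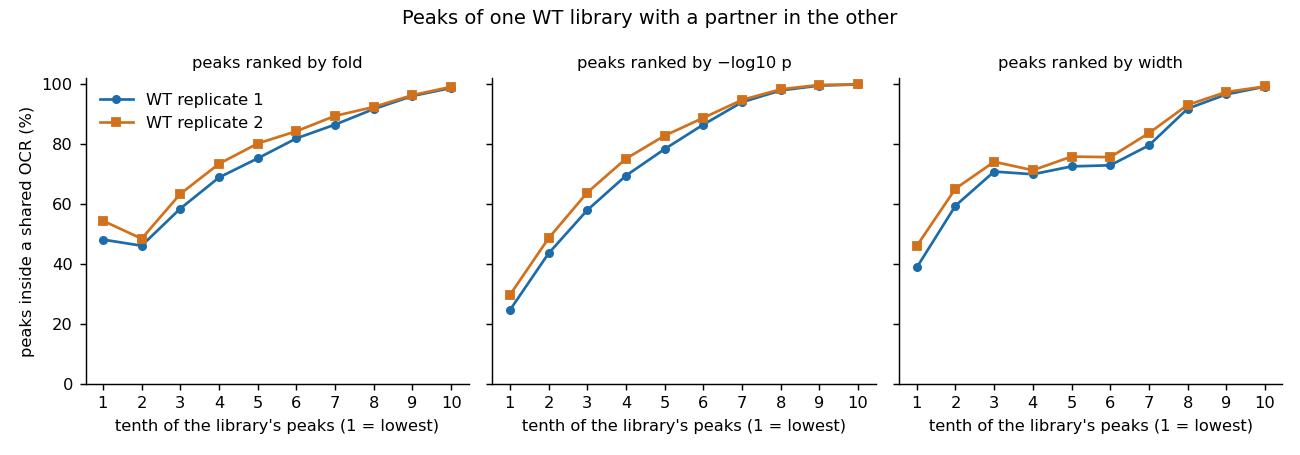
Share of the peaks of WT replicate 1 (circles) and WT replicate 2 (squares) that lie inside a shared OCR (y axis, %), in 10 groups of equal size of each library's peaks ranked by fold, −log10 p and width (x axis, 1 is the lowest group). With −log10 p the share goes from 24.6% and 29.6% in the lowest group to 99.98% in the highest.

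Within the shared OCRs, the values of the libraries were compared by rank over 48592 regions, as a description. Spearman's correlation was 0.763 for fold, 0.824 for −log10 p and 0.743 for width. The regions share their libraries and lie along the same genome, so they are not independent replicates. The SD of the log2 ratio between libraries was 0.22 for fold, 0.37 for −log10 p and 0.67 for width, and 98.7% of shared OCRs had folds within 1.5 times of each other. Width was the least stable measure, with 71.1% within 1.5 times. Each end of an OCR with 1 peak of each library moved by a median of 59 bp between libraries. A median of 73.7% of a shared OCR was open in both.

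Promoters repeated better than other places. Correlations of fold, −log10 p and width were 0.882, 0.914 and 0.832 over promoter OCRs, and 0.681, 0.698 and 0.527 over intronic OCRs. Promoter OCRs also had the higher −log10 p, and whether they repeated better at matched strength was not tested. Membership of the top lists was counted as well, which is on another scale than a correlation and cannot be set against it. Of the 100 strongest shared OCRs by fold in each library, 24 were common to both libraries, against 51 by −log10 p and 56 by width. Of the top 1000, 42.6%, 66.9% and 65.4% were common. Within a library, fold and width were almost unrelated (Spearman -0.00579 and -0.00149), whereas fold and −log10 p went together (0.768 and 0.772).

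**Figure D2:**
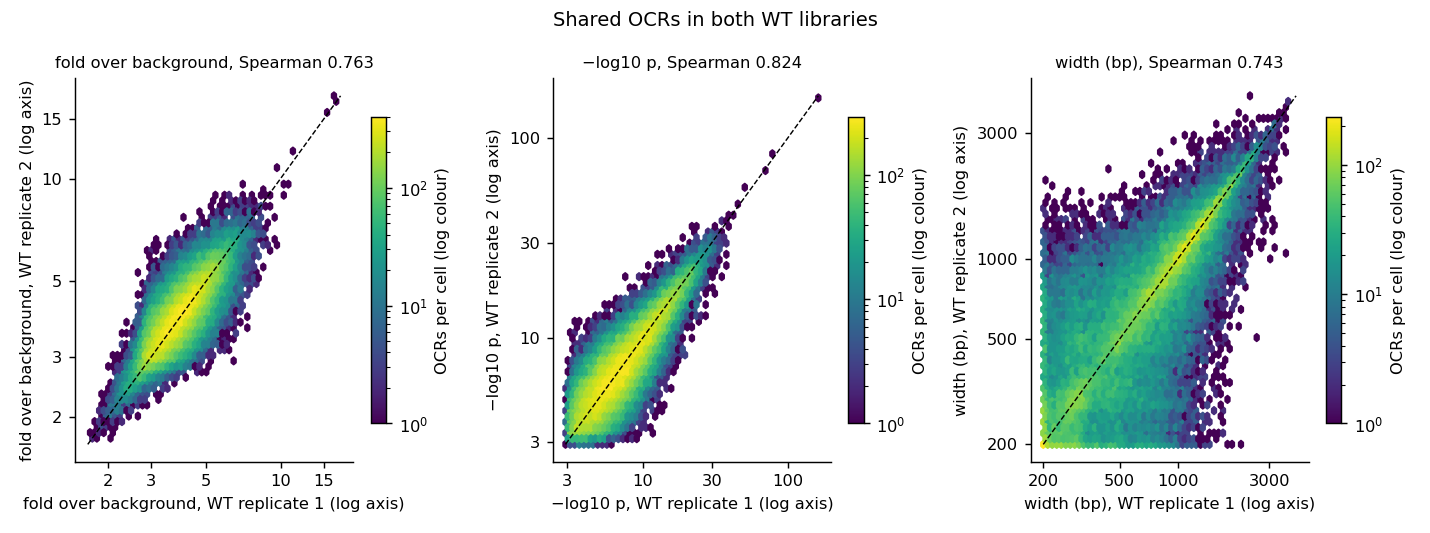
Values of the 48592 shared OCRs in WT replicate 1 (x axis) and WT replicate 2 (y axis) for fold, −log10 p and width in bp, on log axes, with the number of OCRs per cell as color and the line of equality dashed. Points gather along the line most for −log10 p (Spearman 0.824), while widths had the lowest correlation (0.743).

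The OCRs whose fold differed most between the replicates lay away from coding promoters and had widths of 247 to 892 bp. The region with the largest fold ratio toward replicate 1 lay in an intron of PSMA8, a testis-specific proteasome gene, at chr18:26185332-26186150, with folds of 6.50 and 2.93. In ADAMTSL1, an extracellular matrix gene, an intronic OCR of 247 bp had 7.36 in replicate 1 and 3.72 in replicate 2. Toward replicate 2, an exonic OCR of SH3KBP1, an adaptor of receptor endocytosis, had 3.03 and 6.42, and an intronic OCR of MTHFD2L, a mitochondrial folate enzyme gene, had 2.90 and 5.96. None of the 10 regions with the largest ratios, 5 in each direction, was a coding promoter. Fold is averaged over the peak, and the peaks of these regions often differed in width. Widths in replicates 1 and 2 were 276 and 743 bp at PSMA8, 561 and 252 bp at SH3KBP1, and 668 and 306 bp at MTHFD2L. There the library with the higher fold had the shorter peak, but not at ADAMTSL1, with 247 and 200 bp. The part of peak width in the ratios was not tested.

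The strongest OCRs by fold lay mostly outside coding promoters. They were ranked by the mean of their ranks in both libraries, so closeness of their values between libraries is partly set by the choice. The first, at chr17:22521273-22521586, had a fold of 17.2 in replicate 1 and 17.0 in replicate 2. The second, at chr17:43251575-43251944, lay on a U2 snRNA copy inside CCDC200 and had 16.8 and 17.5. The third, at chr3:93470282-93470879, lay 415.5 kb from PROS1 and had 15.4 and 15.3. For scale, 1 peak in 100 exceeded a fold of 6.72 in replicate 1 and 6.77 in replicate 2. Next came an OCR on MTATP6P1, a nuclear pseudogene of a mitochondrial ATP synthase gene, with 11.2 and 11.9. An intergenic OCR 12.8 kb from KRTAP13-1, a hair keratin-associated protein gene, had 10.6 and 9.60. It was 1 of only 2 shared OCRs in its 1 Mb window, in which 0 of 34 coding genes had an open promoter. SNORD3A, which encodes the U3 RNA of ribosome processing, had 10.5 and 8.97.

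Only 2 of the 10 were coding promoters. The promoter shared by DTWD1 and FAM227B had folds of 9.09 and 8.82. An intergenic OCR 337.4 kb from CDH9 had 9.49 and 10.7. The tenth, at chr21:5128230-5128707, had 8.83 and 8.95 and lay 0.118 Mb from an assembly gap. Without regions within 1 Mb of a gap, its place was taken by an OCR in LIFR-AS1 with 8.50 and 9.06. Only gaps of at least 100 kb were considered, and chromosomes 3, 5 and 17 have none. The filter therefore could not remove the leading regions on those chromosomes and says nothing about them.

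By −log10 p, which also counts how many fragments were seen, a partly different set led, and 4 regions were in both sets of 10. The chr3 region was far ahead with 162.6 in replicate 1 and 158.8 in replicate 2, followed by MTATP6P1 with 77.1 and 81.0. The mitochondrial pseudogene MTND2P28 had 46.9 and 46.5. Strong coding promoters appeared here. ENOX2, a surface oxidase gene on chromosome X, had 41.5 and 40.3. The divergent promoter of C2CD3, a centriole gene, and PPME1, a phosphatase methylesterase gene, had 39.2 and 36.5. CCDC150 had 35.3 and 37.2. An OCR of 1410 bp in an intron of PCDH9, a neuronal protocadherin gene, had 38.2 and 39.98 with no coding start within 67.9 kb. The tenth region had −log10 p values far above the top hundredth of all peaks, which began at 22.7 and 22.5.

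Several of these leading regions hold sequence that occurs more than once in the genome. Each 31-base word of the OCRs, taken every 10 bases, was counted in hg38 including chromosomes Y and M. At least 50% of the words were repeated in 1682 shared OCRs (3.46%), in 71 of the 1000 strongest by fold and in 15 of the 100 strongest by fold. By −log10 p they were 32 of the 1000 and 5 of the 100 strongest, and 13 of the 1000 widest OCRs were among them. The shares were 79.4% for the U2 copy and 100% for SNORD3A. The chr3 region had 10.2% and the strongest chr17 region 0%. In an alignment to the mitochondrial genome, the MTATP6P1 region matched over 100% of its length with 98.5% identity and MTND2P28 over 100% with 98.0% identity. The strongest chr17 region matched over 59.2% of its length with 89.2% identity. How reads with several possible positions and mitochondrial reads were handled is not given in the sources used here, and the part of such reads in these values was not tested. ENOX2, C2CD3 and PPME1, CCDC150, DTWD1 and FAM227B, and the OCR near CDH9 had no repeated word.

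**Figure D3:**
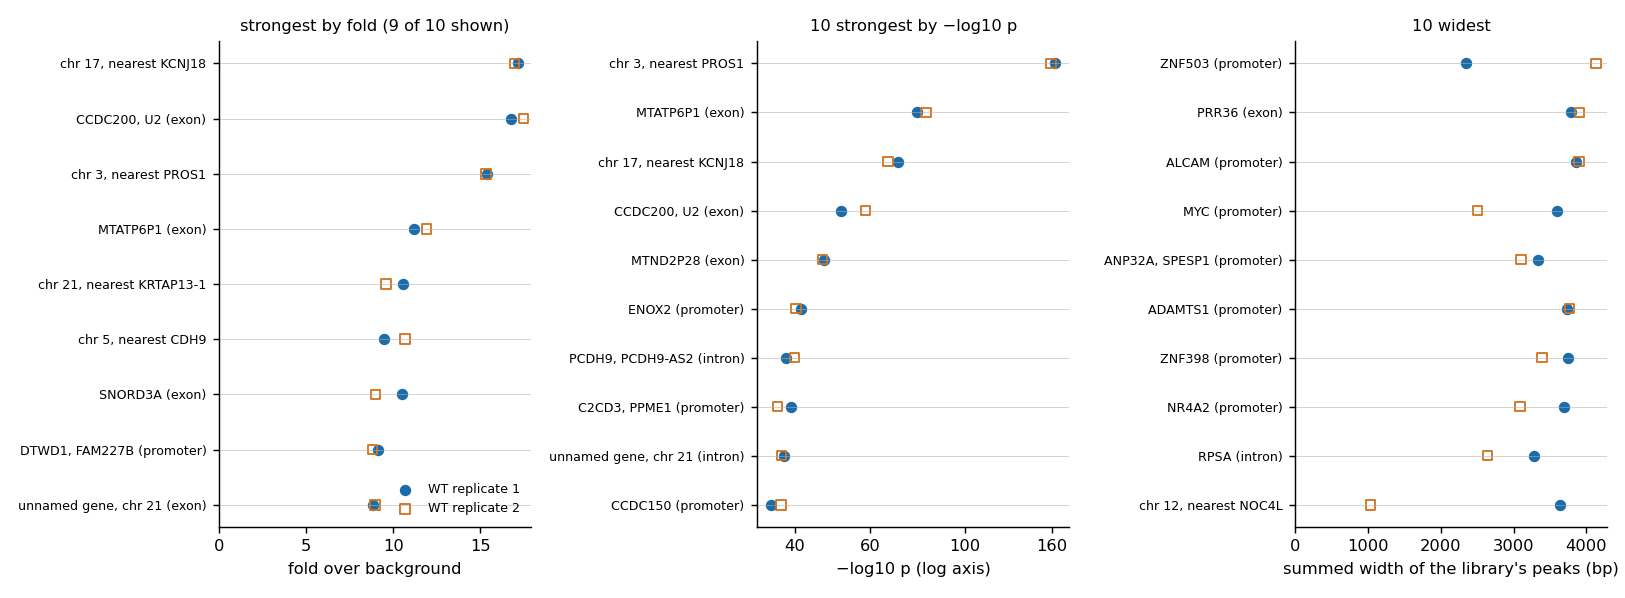
Shown are 9 of the 10 strongest shared OCRs by fold, the 10 strongest by −log10 p (log axis) and the 10 widest by merged length (plotted as the summed width of each library's peaks in bp), with the value of WT replicate 1 (filled circles) and WT replicate 2 (open squares) for each. The first 2 panels were chosen on the plotted values in both libraries and the third on merged length, and in the third the widths of ZNF503, MYC and the chr 12 region near NOC4L differ between libraries.

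Of the 10 widest OCRs 7 were coding promoters, and their average fold was low. The OCR at ZNF503 spanned 4236 bp, and its peaks summed to 2349 bp in 2 pieces in replicate 1 and to 4135 bp in 1 piece in replicate 2. An exonic OCR in PRR36 spanned 3950 bp and the promoter of ALCAM, a cell adhesion gene, 3914 bp. MYC, the growth-promoting transcription factor, had 3799 bp. The shared promoter of ANP32A and SPESP1 had 3784 bp, ADAMTS1, a secreted protease gene, 3768 bp, ZNF398 3748 bp and NR4A2, a nuclear receptor gene, 3741 bp. Among the 10 widest, folds ranged from 2.12 at ZNF503 in replicate 2 to 3.15 at ANP32A in the same library, all below the median of 3.96 and 4.00 over the shared OCRs. None of the 10 widest was among the 10 strongest by either measure. Libraries differed most in the width of the OCR 9.71 kb from NOC4L, which was 3638 bp in replicate 1 and 1036 bp in replicate 2.

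Most promoter OCRs served a single coding gene. Of the 15567, 13496 had the start of 1 coding gene inside or within 1 kb, 1916 of 2, 144 of 3 and 11 of 4, the highest number found. The widest of these 11, with 3243 bp at chr1:149885405-149888647, had the starts of BOLA1 and the histone genes H2AC20, H2AC21 and H2BC21, and its −log10 p was 9.03 in replicate 1 and 10.8 in replicate 2. A second histone OCR, at chr6:26197910-26200010, overlapped H2AC7 and H2BC7, had the start of H3C4 within 1 kb, and had −log10 p values of 9.45 and 10.7. Of the 10 that were ranked, the OCR with NDUFA11, a respiratory complex I gene, and VMAC had the highest −log10 p, 19.2 and 21.4. The OCR at PRH1, SMIM10L1 and TAS2R14 had 18.9 and 17.2, with widths of 813 and 1524 bp in replicates 1 and 2. BORCS8, MEF2B and RFXANK, the last a regulator of MHC class II genes, shared an OCR with 14.8 and 18.2. Readthrough transcripts such as ABHD14A-ACY1 and BORCS8-MEF2B are counted as coding genes of their own in the annotation, so these numbers include starts that belong to the same locus.

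Promoters were next read by gene. Of 19970 protein-coding genes in GENCODE 44, 14380 had at least 1 start within 1 kb of a shared OCR, which is 72.0% and the background for every list given here. Per library the share was 73.9% in replicate 1 and 73.4% in replicate 2, a mean of 73.6% ± 0.340 (SD, n = 2). A closed promoter means that no shared peak was called, and weaker signal may be there. Of the closed genes, 4917 had no peak in either library, 362 and 276 had a peak in a single library, and 35 had a peak of each that did not overlap. Open promoters had a median −log10 p of 11.6 and 11.3. FOXP1, a forkhead transcription factor gene with many alternative starts, had the most promoter OCRs, with 8. Of the other gene types, 29.4% of lncRNA genes, 16.3% of miRNA genes, 9.37% of snoRNA genes and 3.40% of processed pseudogenes had an OCR at a start.

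Genes used by every cell were open nearly throughout. Of the cytosolic ribosomal protein genes 77 of 77 were open, with a median −log10 p of 12.7 in replicate 1 and 11.6 in replicate 2. All 20 aminoacyl-tRNA synthetase genes, which charge tRNAs, were open, led by CARS1 with 24.97 and 27.1. All 28 Mediator genes, which link activators to polymerase, were open, led by MED23 with 30.4 and 29.8. The 12 RNA polymerase II subunits, the 12 MCM and ORC genes that license DNA replication, the 8 subunits of the chaperonin CCT and the 8 CTCF and cohesin genes were likewise open. In these lists POLR2K had 18.6 and 15.4, MCM3 25.7 and 27.1, CCT3 30.4 and 28.3, and STAG2, a cohesin subunit, 18.6 and 16.5.

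The exceptions among these lists were few. Of 39 proteasome genes 37 were open, with PSMA5 at 28.6 and 27.6, and the closed ones were PSMA8, the testis-specific subunit, and PSMB11, the thymus-specific subunit. Of 13 eIF3 genes 12 were open and EIF3C had no peak, but 100% of the words at its start were repeated in the genome, so its state cannot be told apart from that of a near-identical copy. Of 9 HSP70 and HSP90 genes 8 were open. HSPA1B had 23.5 and 22.6, while its neighbor HSPA1A had a peak in replicate 1 alone. Both starts had 32.7% repeated words.

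Families used in single tissues were closed. Of 413 olfactory receptor genes 4 were open (0.969%). OR2A14 had −log10 p values of 11.8 in replicate 1 and 16.1 in replicate 2, OR52N2 had 8.74 and 7.86, OR51D1 had 8.27 and 7.17, and OR1F1 had 5.88 and 4.92. Of 94 keratin-associated protein genes 1 was open, KRTAP5-5, of 40 beta-defensins only DEFB124, of 19 late cornified envelope genes only LCE3A, and of 24 bitter taste receptors only TAS2R14, whose start shares the OCR of PRH1 and SMIM10L1. No gene of 17 type I interferons, 5 protamine and transition protein genes and 4 casein and milk genes was open. Kallikreins and drug-metabolizing cytochromes were mixed. Of 15 kallikreins 4 were open, led by KLK4 with 14.7 and 9.98, and of 21 CYP2 and CYP3 genes 6 were, led by CYP2E1, an ethanol-oxidizing enzyme of the liver, with 19.3 and 16.3 and folds of 8.10 and 7.44. DEFB103A and DEFB103B had 100% repeated words, and 11.99% of all closed promoters had at least 50%, against 1.07% of open promoters.

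Marker genes were used to describe the line labeled as embryonic kidney. Of 17 kidney genes 10 were open (58.8%), below the 72.0% of all coding genes. Open were the developmental regulators SIX2, WT1, GATA3, LHX1, PAX2 and PAX8, with CDH6, LRP2, NPHS1 and SLC34A1. SIX2, a regulator of nephron progenitors, was the strongest with a −log10 p of 19.95 in replicate 1 and 19.8 in replicate 2, and PAX8 was the weakest with 4.78 and 3.72. Among the 7 closed were AQP1, AQP2, CDH16, CUBN and UMOD, of which AQP1, AQP2, CUBN and UMOD encode proteins of mature nephrons.

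Of 12 neuronal genes 10 were open (83.3%), beside 72.0% of all coding genes. MAP2, a microtubule protein of dendrites, had 13.7 and 15.2, ELAVL4 10.96 and 11.8, NEFL, a neurofilament subunit, 10.2 and 10.3, and GAP43 9.97 and 9.57. NEFH had a peak in replicate 2 alone and SYN1 in replicate 1 alone. Of 10 adrenal genes 4 were open, CHGA, PNMT, TH and CYP21A2, the last with 66.3% repeated words at its start, and the steroidogenic regulator NR5A1 had no peak. Epithelial genes CDH1, EPCAM, KRT8 and KRT18 were open and KRT5, KRT14 and KRT19 closed. Of 7 fibroblast genes COL1A1, COL1A2, LUM and PDGFRA were open. The epithelial and fibroblast lists were each open at 57.1%, near the 58.8% of the kidney list.

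Markers of other lineages were mostly closed. Of 8 hepatocyte genes none was open, and TTR had a peak in replicate 1 alone. Of 8 pluripotency genes LIN28B and SOX2 were open, at 10.3 and 7.86 and at 7.91 and 7.57, and POU5F1 and NANOG had no peak. Of 10 haematopoietic genes 3 were open, among them CD34 and IKZF1, of 8 muscle genes MYOD1 and TNNT2, and of 6 endothelial genes KDR, the VEGF receptor gene, with 9.21 and 12.2. An open promoter does not show transcription, and RNA of the line was not analysed here.

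**Figure D4:**
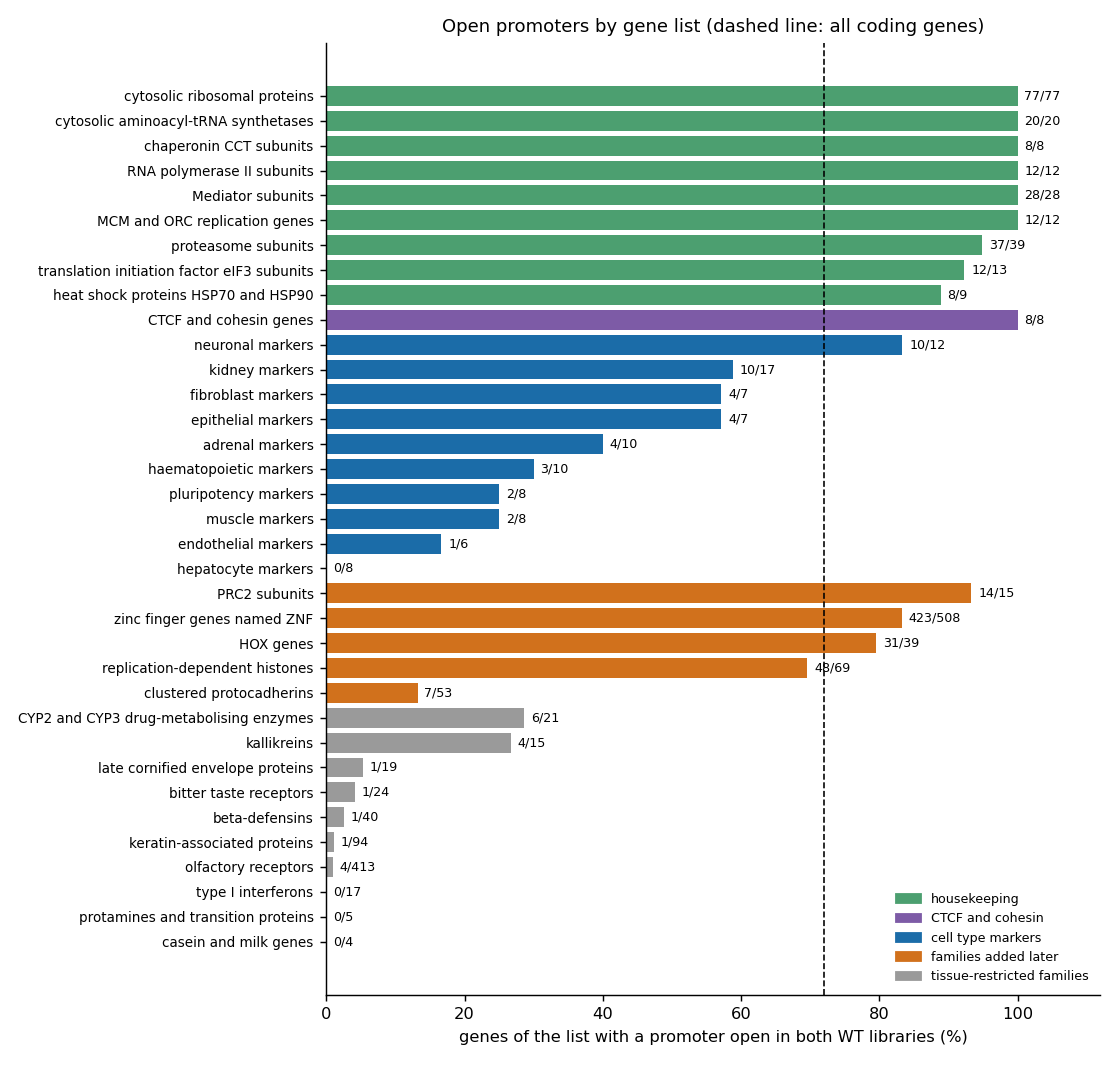
Share of the genes of each list with a promoter open in both WT libraries (x axis, %), with the number open of the number in the list beside each bar and the 72.0% of all coding genes as a dashed line. Housekeeping lists lie between 88.9% and 100%, tissue-restricted families between 0% and 28.6%, the marker lists between 0% and 83.3%, and the families added later between 13.2% and 93.3%.

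EZH2 itself and the PRC2 genes were then read in the same way, together with the HOX genes, which PRC2 is known to target, and other gene families in clusters. These lists were added after other values had been seen. EZH2 spans chr7:148807257-148884321 on the minus strand and has 20 exons in its canonical transcript. Its promoter was covered by an OCR of 1837 bp with a −log10 p of 13.1 in replicate 1 and 12.9 in replicate 2 and folds of 3.58 and 3.896. A second, intronic OCR of 571 bp had folds of 3.74 and 2.78. Exon 1 was the only exon in a shared OCR. Exons 1 and 2 were the only ones in any region of either library. Of 15 core and accessory PRC2 genes 14 were open (93.3%, beside 72.0% of all coding genes). EED had −log10 p values of 9.13 and 10.5, SUZ12, with 44.9% repeated words at its start, 9.82 and 9.27, EZH1, the paralog of EZH2, 14.3 and 15.6, and RBBP4 16.6 and 16.8. PHF19 had the highest −log10 p of the list, 18.0 and 17.6. EZHIP, a germline inhibitor of PRC2, had no peak.

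HOX genes, the homeobox genes that pattern the body axis, were open at a share near that of all coding genes. Of 39 HOX genes 31 were open (79.5%, beside 72.0% of all coding genes), with a median fold of 2.88 in replicate 1 and 2.95 in replicate 2, against 4.26 and 4.29 over all open coding promoters. Shared OCRs covered 19.6% of the HOXA cluster in 20 regions, 12.2% of HOXB in 22, 16.1% of HOXC in 17 and 14.8% of HOXD in 11. Over the genome they covered 1.46%, though these clusters were chosen for their genes and genes are open more often than other sequence. HOXD13 had the highest −log10 p of the family with 13.7 and 15.4, and HOXA6 the lowest with 3.51 and 3.16. HOXA2, HOXB1, HOXC8, HOXC12, HOXD4, HOXD9 and HOXD12 had no peak, and HOXA7 had a peak in replicate 2 alone.

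Clustered protocadherins were mostly closed, with 7 of 53 genes open (13.2%). PCDHGC3 had a −log10 p of 20.7 and 13.6, PCDHAC1 had 11.4 and 6.85 and PCDHGC4 had 10.0 and 9.07, while PCDHA11, PCDHGA7, PCDHGA11 and PCDHGB7 ranged from 3.73 to 7.59. In each of these 7 genes except PCDHGA11 the value of replicate 1 was the higher. Replication-dependent histone genes were open in 48 of 69 cases (69.6%, beside 72.0% of all coding genes). The median width over the open genes was 2055 bp, where an OCR at several histone genes was counted once for each gene. Of these genes, 5 of the 21 closed and 6 of the 48 open had at least 50% repeated words. Zinc finger genes named ZNF were open in 423 of 508 cases (83.3%, beside the same 72.0%), with a median fold of 5.03 and 5.18.

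Open and closed promoters differed in sequence. The 300 bases from 250 before to 50 after the canonical start had a median GC content of 66.3% in open and 52.7% in closed promoters, and a median CpG ratio of 0.848 and 0.285. A gene was called open here by any of its starts, while the sequence is that of its canonical start. By the canonical start alone 67.5% of genes were open, against 72.0% by any start. The sequences of open promoters thus include some canonical starts without a shared OCR. The share of open promoters went up with the CpG ratio, from 19.0% of 2385 promoters below 0.2 to 30.8% from 0.2 to 0.4, 53.6% from 0.4 to 0.6, 85.3% from 0.6 to 0.8 and 93.9% of 9229 promoters at or above 0.8. Motif searches were made on both strands with fixed letters, none of which holds another. A match is a description of the letters and not evidence of a bound factor. The ETS core CCGGAAG was found in 18.1% of open and 3.74% of closed promoters (14.1% of all), the SP1 box GGGGCGGGG in 30.5% and 9.02% (24.5% of all), the NRF1 site GCATGCGC in 5.39% and 1.32% (4.25% of all) and the YY1 site ATGGCGGC in 5.99% and 0.912% (4.57% of all). The NF-Y box CCAAT showed no such gap, with 35.9% and 36.3% (36.0% of all). The AP-1 site TGANTCA went the other way, with 3.87% of open and 9.46% of closed promoters (5.44% of all). CTCF (AGGNGGCAG) was in 5.003% of all promoters, TEAD (ACATTCC) in 2.39%, the CREB site TGACGTCA in 2.69%, the E-box CACGTG in 8.75%, the ZBTB33 site TCTCGCGAG in 1.01% and the RFX site GTTGCCAT in 1.24%. Of the 6 motifs given first, all but CCAAT and AP-1 are rich in G and C, and the part of GC content in the gaps was not tested.

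In the middle 200 bases of the shared OCRs, promoters and other places held different motifs. The SP1 box was in 13.3% of promoter OCRs and 1.78% of the others, and in 0.535% and 0.346% of windows 10 kb beside them that held no peak. ETS was in 7.80% and 1.42%, with 0.645% and 0.568% in the windows beside. Away from promoters the CTCF core AGGNGGCAG was in 6.32%, against 2.07% beside, and AP-1 in 9.54%, against 6.15%. At promoters AP-1 went the other way, with 2.94% against 5.74% beside. The NF-Y box was less frequent in OCRs than beside them, with 18.6% against 22.5% at promoters and 22.2% against 25.8% elsewhere. Away from promoters TEAD (ACATTCC) was in 3.67%, against 2.75% beside. The windows also differed in composition. Median GC content was 67% in promoter OCRs against 45% beside them, and 50% against 42.5% elsewhere. The part of GC content in these gaps was not tested. Regions of replicate 1 alone and of replicate 2 alone held the CTCF core in 4.32% and 4.16% and AP-1 in 8.97% and 8.98%. Away from promoters, OCRs with the CTCF core had a median width of 384 bp in replicate 1 and 377 bp in replicate 2, and those without it 489 and 490 bp, with median folds of 4.08 and 4.11 against 3.92 and 3.95.

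The strength of promoter OCRs and their motifs went together. Promoter OCRs were ranked by −log10 p and split into 10 groups of equal size. From the lowest to the highest group, the share with an ETS core went from 2.51% to 15.03%, that with NRF1 from 0.386% to 2.95%, and that with YY1 from 0.835% to 3.34%. The NF-Y box stayed between 13.8% and 16.7% over the lowest 7 groups and then reached 18.9%, 23.8% and 36.0%. The SP1 box had no such trend, with 9.77% in the lowest and 12.3% in the highest group. AP-1 went from 6.04% to 1.73%. The median GC content of the windows was 61.5% in the lowest group, 68.5% in groups 5 to 7 and 66.0% in the highest. The median width in replicate 1 was 654 bp in the lowest and 1095 bp in the highest group, and the part of width and GC content was not tested.

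**Figure D5:**
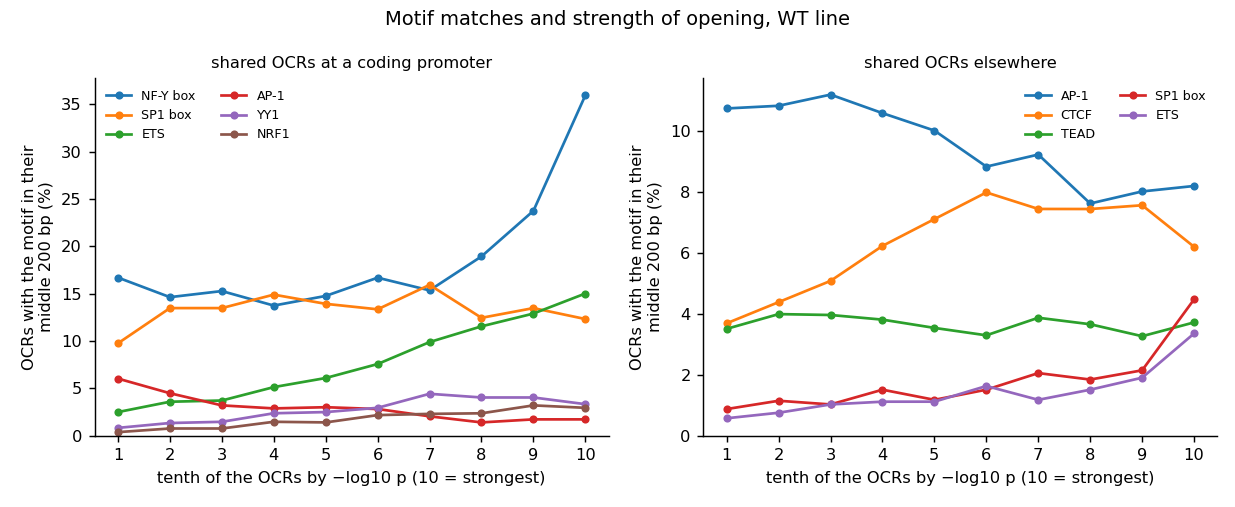
Share of shared OCRs whose middle 200 bp hold a motif (y axis, %), in 10 groups of equal size of the OCRs ranked by −log10 p in both libraries (x axis, 10 is the strongest), at coding promoters and elsewhere. At promoters the NF-Y box reaches 36.0% and ETS 15.03% in the highest group, and elsewhere CTCF goes from 3.69% in the lowest to 7.99% in group 6 and 6.21% in the highest.

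Matches in the strongest OCRs are shown in capitals within 50 bases, to place the letters in their regions. The intergenic OCR near KRTAP13-1 has an NF-Y box on the minus strand of chr21:30408959-30409008, close to its middle.
Near KRTAP13-1: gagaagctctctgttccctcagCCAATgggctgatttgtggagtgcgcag
ENOX2 has 2 such boxes, of which that on the minus strand of chrX:130903236-130903285 is the nearer to its middle.
ENOX2: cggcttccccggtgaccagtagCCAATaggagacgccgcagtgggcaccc
The intergenic OCR near CDH9 holds 2 AP-1 sites, and that at chr5:26553206-26553255 on the plus strand is shown.
Near CDH9: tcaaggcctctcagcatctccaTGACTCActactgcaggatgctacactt
The strongest region by fold, on chromosome 17 and 828.8 kb from the closest coding start, held none of the 12 motifs searched.

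Along the chromosomes, shared OCRs were spread unevenly. The 2921 windows of 1 Mb held a median of 15 shared OCRs (interquartile range 7 to 23), 118 windows (4.04%) held none, and the densest 10% of windows held 25.1% of all. Chromosome 19 had the highest density, with 32.6 per Mb and 25.3 coding genes per Mb, and chromosome X the lowest, with 10.4 per Mb and 5.55 coding genes per Mb. Over the 23 chromosomes the ranks of OCRs and coding genes per Mb had a Spearman correlation of 0.842, as a description. The share of coding genes with an open promoter ranged from 57.4% on X and 57.7% on chromosome 21 to 80.5% on chromosome 18, which has few genes (266).

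The densest window held 79 shared OCRs, at chr19:1000001-2000000, and 35 of its 39 coding genes were open. The window holds the tumor suppressor gene STK11, the peroxidase gene GPX4 and the transcription factor gene TCF3. The window at chr11:65000001-66000000 followed with 74, and 44 of 49 genes were open. The third, chr6:28000001-29000000, stood apart by holding 70 shared OCRs with 19 coding genes, of which 15 were open. Its genes are largely zinc finger genes of the ZSCAN and ZKSCAN families. The most open promoters were in chr17:7000001-8000000, with 53 of 70 genes. After the window on chromosome 11, 42 were open in each of chr6:31000001-32000000 in the MHC region (of 64), chr19:12000001-13000000 with its ZNF genes (of 52) and chr16:67000001-68000000 (of 46).

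Closed windows were tandem gene families. In chr17:41000001-42000000 49 of 60 coding genes were closed, most of them keratin and keratin-associated genes, with 21 shared OCRs in the window. In the beta-defensin and FAM90A window of chromosome 8 (7000001 to 8000000) none of 42 genes was open. DEFB103A and DEFB103B in this window had 100% repeated words, so their state cannot be told apart from that of near-identical copies. In chr11:5000001-6000000, which holds the beta-globin cluster and olfactory receptors, 41 of 45 were closed. In chr5:141000001-142000000 35 of 50 were closed, mainly protocadherins, and in chr21:30000001-31000000 all 34 were closed, mainly keratin-associated genes. The longest stretch without a shared OCR and without a large assembly gap was chr18:14450980-20971719, which spans the centromere. In it lie, wholly or in part, 3 coding genes, POTEC, ANKRD30B and ROCK1.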

How the data were processed

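ATAC-seq broad peak lists of the 2 EZH2 WT libraries were used, out of 8 libraries in the series. Per the paper's methods and the submitters' processing notes, reads were trimmed with Trim Galore 0.6.5 and aligned with BWA 0.7.17, duplicates were removed with Samtools, peaks were called per library with MACS2 2.2.7.1, and deepTools 3.5.1 was also used. The files deposited by the authors give for each broad peak a fold enrichment, which is a ratio of pileup to local background, and a −log10 p, both averaged over the peak. The −log10 q deposited by the authors was used only for a stricter threshold, and the display score deposited by the authors was not used. The lowest −log10 q was 1.00 in both libraries. Read depth, mitochondrial filtering, transposase shift and the handling of multi-mapping reads are not given in the sources used here. All 127437 peaks lay within hg38 chromosome lengths, which was taken as the build, and 13 and 14 peaks on chromosome Y were left out.

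Peaks overlapping by at least 1 bp were merged over chromosomes 1 to 22 and X (Python 3.11.15, pandas 2.3.3). A region took the highest fold and −log10 p and the summed width of its peaks in each library. Coding promoters were windows of 1 kb around all starts of protein-coding transcripts in GENCODE 44. Loci were ranked by the mean of their ranks in both libraries, and the first 10 per ranking, 5 windows of 1 Mb per ranking and 5 regions per direction of the fold ratio were named. In gene lists the strongest open gene and closed housekeeping genes were named, and marker genes were named by state. Repeated sequence was counted as 31-base words, and loci were aligned to the mitochondrial genome with BLAST 2.17.0+. With 1 group of 2 libraries no test was made, and correlations are descriptions. The members, lists and rankings were chosen with earlier results of these data known, and the PRC2, HOX, protocadherin, histone and ZNF lists and any further gene named for its value were added after values were seen. Scripts were tested on simulated data. Some genes and a locus are not reported here.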

Additional observations from a re-analysis of the deposited data

How the results depend on the processing

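Of 44 alternative values, 20 stayed within the limits set (1.5 times for a count, the SD between libraries for a share or length, 0.05 for a correlation) and 24 moved. A minimum −log10 q of 5 left 18566 shared OCRs over 19.98 Mb, 55.3% of coding promoters open, 54.99% of OCRs at a coding promoter, and correlations of 0.831 for fold, 0.770 for −log10 p and 0.862 for width. Requiring 1 peak of each library to overlap by at least 50% gave 33.8 Mb, 67.8% of promoters open, 35.9% of OCRs at a promoter and a width correlation of 0.917, a rule that selects on width itself. Without replicate 1 or replicate 2, that is with all peaks of a single library, regions numbered 62514 to 64923 over 41.3 to 42.5 Mb, 73.4% to 73.9% of promoters were open and 25.9% to 26.7% of regions were at a promoter. Merging peaks less than 1 kb apart gave 44.7 Mb. The shares of promoters open and of OCRs at a promoter were 70.8% and 30.5% with a window of 500 bp, 74.0% and 35.0% with 2 kb, and 67.5% and 25.1% with 1 canonical start per gene. Ranking by −log10 p kept 4 of the 10 strongest OCRs. Taking the same number of peaks from both libraries moved none of its 7 values. No paired analysis was possible because the data are 1 group of 2 libraries with no comparison between groups. Without read depth, closed promoters cannot be told apart from promoters whose peaks were too weak to call.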
